A study of Arabidopsis thaliana with 2 samples.

Results

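The glucosinolate genes of Arabidopsis thaliana examined here were a list of 46 gene IDs, chosen by their known roles in the pathway, without a threshold on these measurements but with earlier results of these data known. The list held the MYB regulators, the enzymes of methionine chain elongation, core synthesis and side-chain modification, the enzymes that modify indole glucosinolates, and the myrosinases. Of the 46, 43 were among the 18345 genes of the deposited tables. By role, 27 were assigned to the aliphatic branch, 13 to the indolic branch, 3 to enzymes shared by both and 3 to breakdown. MYB122, a regulator of the indolic branch, and AOP2 and AOP3, which modify aliphatic side chains, were not in the tables and are not analysed here.

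The transcripts were measured by RNA sequencing in leaves of 2-week-old soil-grown plants kept at 4 °C for 24 h. Days were long, and the light was lowered from 90 to 40 µmol of photons per square metre and second for the cold. Wild-type Col-0 was set against npr1-1, a line with a point mutation in NPR1, the transcriptional co-activator of salicylic acid responses. There was 1 library per genotype, so the spread between plants was not measured, no test between the genotypes was possible, and every 95% interval given below covers counting error only. Both genotypes had been in the cold, so the response to cold itself was not measured. Levels are in CPM, the reads of a gene per 1000000 reads of the library. They corresponded to 50864103 reads for Col-0 and 50976521 for npr1-1, and 5 CPM stood for 254 and 255 reads. NPR1 itself stood at 22.0 in Col-0 against 18.7 CPM in npr1-1, which does not check a point mutation. Whether plants were pooled is not given. Of the leaf markers, the photosynthesis genes were abundant, with the Rubisco small subunit gene RBCS1A at 13067 and 13311 CPM. MYB60, also listed as a leaf marker, stood at 15.3 and 15.6 CPM. None of the 3 flower and 3 seed markers was in the tables.

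Glucosinolates are sulfur-rich thioglucosides that Arabidopsis and its relatives store against herbivores and microbes. The aliphatic kind is made from methionine, whose chain is first lengthened in the chloroplast, and the indolic kind is made from tryptophan. In each branch a CYP79 enzyme turns the amino acid into an aldoxime, a CYP83 enzyme oxidises the aldoxime, and conjugation to glutathione, cleavage, glucosylation and sulfation complete the core. When tissue is broken, myrosinases remove the glucose and release isothiocyanates, nitriles and other products. Related but separate groups of MYB factors control the branches, MYB28, MYB29 and MYB76 for the aliphatic one and MYB34, MYB51 and MYB122 for the indolic one.

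The branches differed in opposite directions between the libraries. Differences are given as log2(CPM + 1) in npr1-1 minus Col-0, a scale that understates the change of genes with few reads, for genes that reached 5 CPM in either library. The 24 aliphatic genes past that minimum had a median difference of 0.34, with 21 above 0 and 3 below. The 8 indolic genes past it had a median of -0.36, with 2 above 0 and 6 below. The aliphatic median exceeded the indolic one by 0.70 on the log2 scale, with a counting interval from 0.54 to 0.81. Over all 13976 genes past the minimum the median was -0.05, and 41.0% of the genes lay above 0 and 59.0% below. The 3 shared enzymes had a median of 0.05 and the 3 breakdown genes one of -0.07.

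The differences were modest for single genes. None of the 38 glucosinolate genes past the minimum was 2-fold apart, against 0.730% of all genes. At 1.5-fold, 2 were lower in npr1-1, FMOGS-OX4 and IGMT2, against 2.06% of all genes, and 0 were higher, against 0.909%. In either direction 2.97% of all genes were that far apart. At 1.25-fold, a threshold added after the values were seen, 13 of the 24 aliphatic genes were higher, against 6.11% of all genes, and 1 was lower. At the same threshold 5 of the 8 indolic genes were lower, against 9.09% of all genes, and 1 was higher. The counting interval of the npr1-1 to Col-0 ratio lay above 1 for 21 aliphatic genes and below 1 for 2, and for the indolic genes it lay above 1 for 1 and below 1 for 5. The same intervals lay above 1 for 23.5% and below 1 for 36.8% of all genes, so an interval that leaves out 1 was common at this depth.

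**Figure D1:**
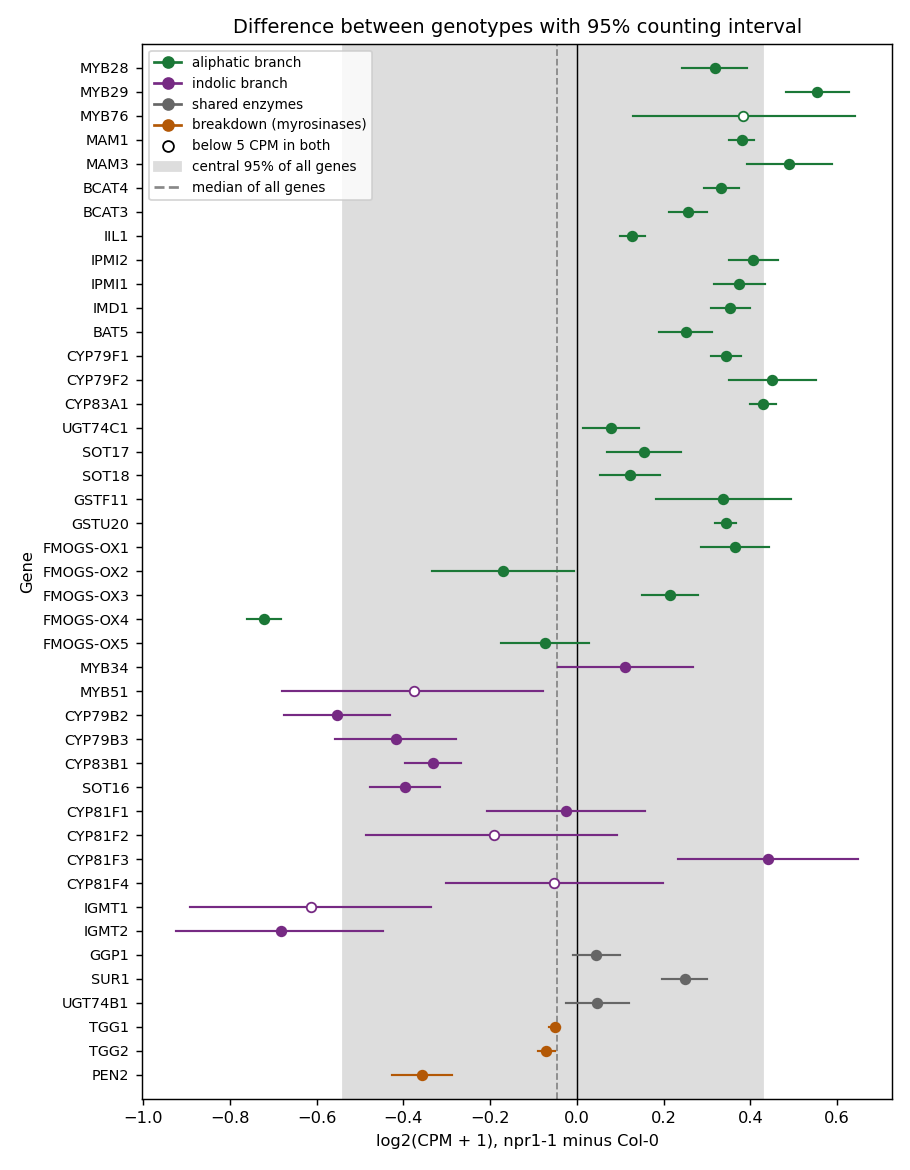
Difference of each glucosinolate gene in log2(CPM + 1), npr1-1 minus Col-0 (x axis), with its 95% counting interval, by gene (y axis), for 1 library per genotype. Open points are genes under 5 CPM in both libraries, the grey band is the central 95% of all 13976 genes past the minimum, from -0.54 to 0.43, and the dashed line is their median of -0.05. Aliphatic genes (green) sit mostly between 0.1 and 0.5, and the indolic core genes (purple) between -0.55 and -0.33.

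The promoter sequences of the pair of genes furthest from 0 in each branch, FMOGS-OX4 and MYB29 for the aliphatic branch and IGMT2 and CYP79B2 for the indolic one, are shown because these carry the largest differences. Each run is the 250 bases before the RefSeq gene start on TAIR10.1, read 5′ to 3′ on the strand of the gene, with capitals for any match to the 4 motifs searched.
FMOGS-OX4, chr1:23168517-23168766, plus strand: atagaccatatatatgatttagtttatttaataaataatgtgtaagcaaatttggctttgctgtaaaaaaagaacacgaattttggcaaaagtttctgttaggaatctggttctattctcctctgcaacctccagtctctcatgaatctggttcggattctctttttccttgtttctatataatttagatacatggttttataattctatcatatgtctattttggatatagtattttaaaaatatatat
MYB29, chr5:2446419-2446668, plus strand: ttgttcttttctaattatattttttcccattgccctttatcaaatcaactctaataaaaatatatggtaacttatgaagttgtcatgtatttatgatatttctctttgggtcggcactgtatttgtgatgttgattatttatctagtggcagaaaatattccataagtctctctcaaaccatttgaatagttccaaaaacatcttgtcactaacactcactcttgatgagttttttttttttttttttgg
IGMT2, chr1:7396824-7397073, minus strand: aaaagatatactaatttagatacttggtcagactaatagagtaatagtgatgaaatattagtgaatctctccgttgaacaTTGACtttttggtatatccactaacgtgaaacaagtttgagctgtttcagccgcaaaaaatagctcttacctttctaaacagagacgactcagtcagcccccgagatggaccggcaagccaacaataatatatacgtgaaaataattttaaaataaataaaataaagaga
CYP79B2, chr4:18524792-18525041, plus strand: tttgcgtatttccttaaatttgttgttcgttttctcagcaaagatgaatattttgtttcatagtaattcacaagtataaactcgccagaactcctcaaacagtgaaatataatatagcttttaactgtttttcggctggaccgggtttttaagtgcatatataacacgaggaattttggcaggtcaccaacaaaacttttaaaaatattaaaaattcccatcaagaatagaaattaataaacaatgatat
The motifs, searched on both strands, were the G-box CACGTG, which MYC factors bind, TGACG, which TGA factors bind, the W-box TTGAC, which WRKY factors bind, and GAANNTTC, a core of the heat shock element. TGACG and TTGAC can overlap in TTGACG. Of these letters only a W-box was in the 4 windows, in that of IGMT2. Over the promoters of the 25 aliphatic genes in the tables, 2 held a G-box, 3 TGACG, 9 a W-box and 1 the heat shock element, which is 8%, 12%, 36% and 4%. Of the 12 indolic promoters 0, 1, 5 and 0 did. Among the 18153 listed genes with a window the shares were 7.45%, 19.2%, 44.3% and 9.34%. A match is a stretch of letters and not a shown site, and matches outside these windows were not searched.

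The aliphatic regulators were higher in npr1-1. MYB28 (AT5G61420, chromosome 5, 24689151 to 24690797, minus strand, TAIR10), the main activator of the branch, stood at 48.8 in Col-0 against 61.1 CPM in npr1-1. The npr1-1 level divided by the Col-0 level was 1.25, and counting error allows 1.19 to 1.32. Ratios below are given the same way. MYB29 (AT5G07690), which acts beside MYB28, stood at 49.3 and 72.9 CPM, a ratio of 1.48 from 1.405 to 1.56. Its difference of 0.55 was the highest on the log2 scale among the 38 genes. MYB76 (AT5G07700), the third of the group and the lowest per kb, was below the minimum with 122 and 175 reads, a ratio of 1.43 from 1.13 to 1.82. MYB29 and MYB76 are neighbours on chromosome 5, with 1781 bases between their models.

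The indolic regulators did not show a common direction. MYB34 (AT5G60890) stood at 10.9 in Col-0 against 11.8 CPM in npr1-1, and the interval of its ratio, 0.968 to 1.22, included 1. MYB51 (AT1G18570), a regulator of indole glucosinolates in leaves, was below the minimum in both libraries. It had 76 reads in Col-0 and 47 in npr1-1, a ratio of 0.617 from 0.420 to 0.899. The enzyme genes of this branch were mostly lower in npr1-1, while the regulator with the most reads was not.

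All 9 genes of methionine chain elongation and transport were higher in npr1-1, with differences from 0.13 to 0.49 and a median of 0.35. The cycle starts with BCAT4, which removes the amino group of methionine, at 167 in Col-0 against 210 CPM in npr1-1. BAT5, the transporter that carries the keto acid into the chloroplast, stood at 75.1 and 89.5 CPM. The methylthioalkylmalate synthases then add carbon from acetyl-CoA, and they set the chain length. MAM1 (AT5G23010, chromosome 5, 7703092 to 7706896) stood at 340 and 443 CPM, a ratio of 1.302 from 1.28 to 1.33. MAM3 (AT5G23020), which also makes the longest chains, stood at 26.7 and 37.9 CPM, a ratio of 1.42 from 1.32 to 1.52. Per kb of model, MAM1 had 197 CPM in Col-0 and MAM3 14.9. The isomerase subunits and the dehydrogenase that complete each turn were also higher. IIL1, the large subunit of the isomerase, had the smallest difference of the 9, at 341 and 373 CPM. Its small subunits IPMI2 and IPMI1 stood at 85.1 and 113 CPM and at 79.4 and 103 CPM. IMD1, the dehydrogenase, stood at 138 and 177 CPM, and BCAT3, which returns the amino group, at 156 and 187 CPM. IMD1 shares 94.0% identity with IMD3 over 89.4% of a transcript, and the BCAT4 model overlaps 307 bases of a gene on the opposite strand, so the reads of both are uncertain.

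The core genes of the aliphatic branch were all above 0, and the early steps stood further from 0 than the late ones. CYP79F1 (AT1G16410, chromosome 1, 5608807 to 5611426, plus strand), which converts methionine derivatives of every chain length, stood at 234 in Col-0 against 297 CPM in npr1-1. CYP79F2 (AT1G16400), restricted to long chains, lies 1333 bases away and stood at 25.8 and 35.7 CPM. The transcripts of the pair are 91.96% identical over at least 50% of their lengths, so how their reads were divided is uncertain. CYP83A1 (AT4G13770), the next enzyme, stood at 304 and 410 CPM, a ratio of 1.35 from 1.32 to 1.38. The glutathione transferase genes GSTU20 and GSTF11, which are co-expressed with this branch, stood at 483 and 613 CPM and at 9.93 and 12.8 CPM. GSTF11 shares transcript sequence with an annotated neighbour, and its reads are uncertain. The late genes were closer to 0. UGT74C1, a glucosyltransferase, stood at 72.0 and 76.0 CPM, and the sulfotransferase genes SOT17 and SOT18 at 40.0 and 44.7 CPM and at 62.1 and 67.7 CPM. Their ratios were 1.06, 1.12 and 1.09, and the UGT74C1 model overlaps 40 bases of a gene on the opposite strand.

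The core genes of the indolic branch were all lower in npr1-1, with a median of -0.41. CYP79B2 (AT4G39950, chromosome 4, 18525246 to 18527579, plus strand), which turns tryptophan into indole-3-acetaldoxime, stood at 24.6 in Col-0 against 16.5 CPM in npr1-1. Its ratio was 0.669, from 0.612 to 0.730. CYP79B3 (AT2G22330), the second enzyme for the same reaction, stood at 17.3 and 12.7 CPM, a ratio of 0.734 from 0.662 to 0.813. CYP83B1 (AT4G31500) of the next step stood at 84.4 and 66.9 CPM, a ratio of 0.792 from 0.757 to 0.829. SOT16 (AT1G74100), the sulfotransferase that acts on indole glucosinolates, stood at 54.7 and 41.3 CPM, a ratio of 0.756 from 0.714 to 0.800. SOT16 and SOT18 face each other on chromosome 1 with 151 bases between their models, and they differed in opposite directions, by -0.40 and 0.12.

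Of the enzymes that both branches use, GGP1 and UGT74B1 stayed near the middle, with differences of 0.04 and 0.05. SUR1 had a difference of 0.25, where the 90th percentile of all genes past the minimum was also 0.25. GGP1, a gamma-glutamyl peptidase, stood at 103 in Col-0 against 106 CPM in npr1-1. UGT74B1, a glucosyltransferase, stood at 58.4 and 60.4 CPM, and for both genes the interval of the ratio included 1. SUR1, the C-S lyase, was higher in npr1-1, at 105 and 125 CPM, a ratio of 1.19 from 1.15 to 1.23.

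**Figure D2:**
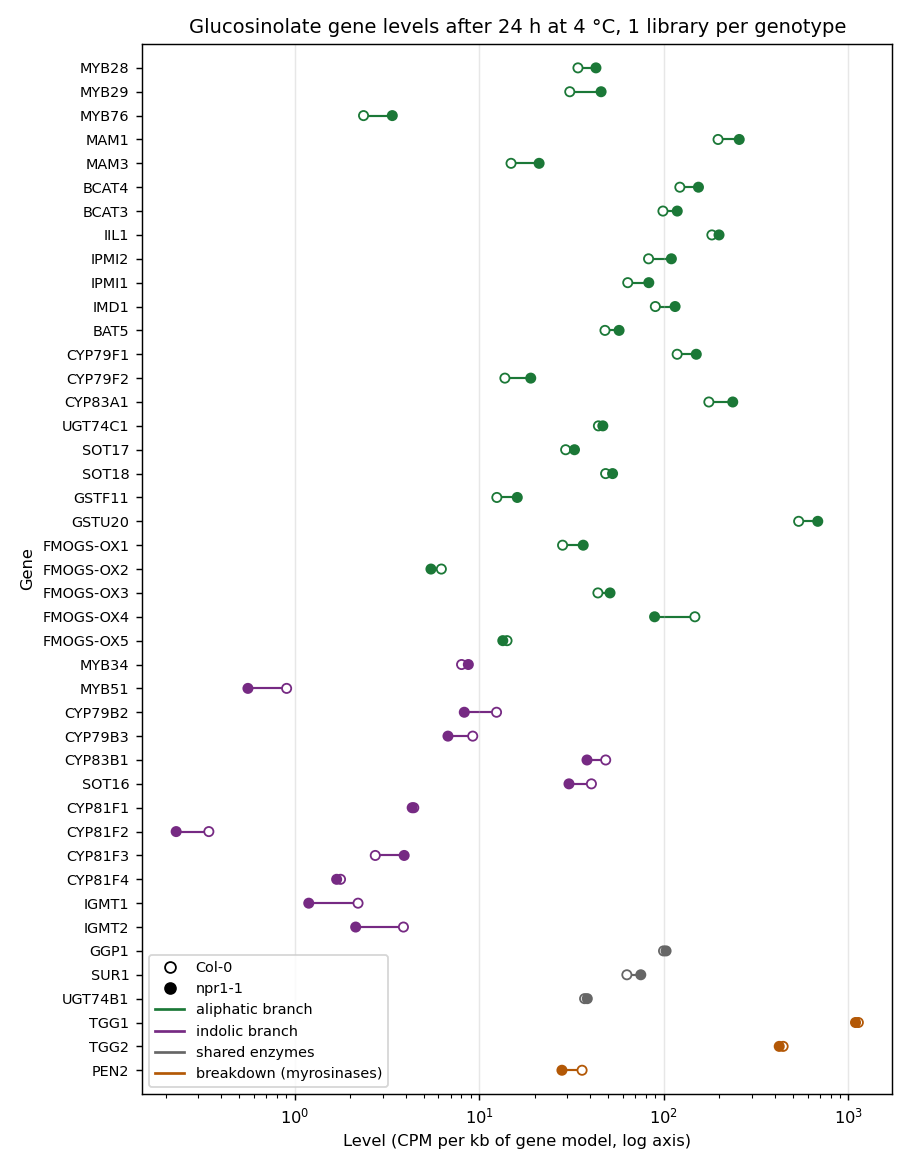
Level of each glucosinolate gene in CPM per kb of its deposited model length (x axis, log scale) in the single Col-0 library (open) and the single npr1-1 library (filled), by gene (y axis). TGG1 has the highest level, at 1131 and 1092 CPM per kb, and the 6 listed genes of indole modification all lie below 5 CPM per kb in both libraries.

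The same enzymatic step could be compared across the branches as a level per kb of gene model. In Col-0 the summed level of CYP79F1 and CYP79F2 was 132 CPM per kb, against 21.6 for CYP79B2 and CYP79B3, a ratio of 6.10. In npr1-1 the sums were 169 and 15.0, a ratio of 11.2. The aliphatic CYP79 genes thus exceeded the indolic ones in both libraries, and by more in npr1-1. For CYP83A1 against CYP83B1 the ratio of the levels was 3.62 in Col-0 and 6.16 in npr1-1. For SOT17 and SOT18 against SOT16 it was 1.92 and 2.79, and for the MYB regulators in the tables it was 7.57 and 9.91. Over the listed genes in the tables, 25 aliphatic and 12 indolic, the ratio was 16.2 in Col-0 and 24.7 in npr1-1, a change of 1.52-fold. This ratio depends on which genes were listed. The 9 elongation genes are in the aliphatic sum only, and so are the glutathione transferase genes GSTU20 and GSTF11. Of the glutathione transferase genes in neither sum, GSTF9 stood at 891 in Col-0 against 986 CPM in npr1-1, and GSTF10 at 169 and 128 CPM. In Col-0 GSTF9 alone exceeded the 210 CPM to which the 8 indolic genes past the minimum summed. The ratio with these genes included was not computed. The sums are dominated by the genes with the most reads, and GSTU20 alone had 537 of the 2184 CPM per kb of the aliphatic sum in Col-0.

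**Figure D3:**
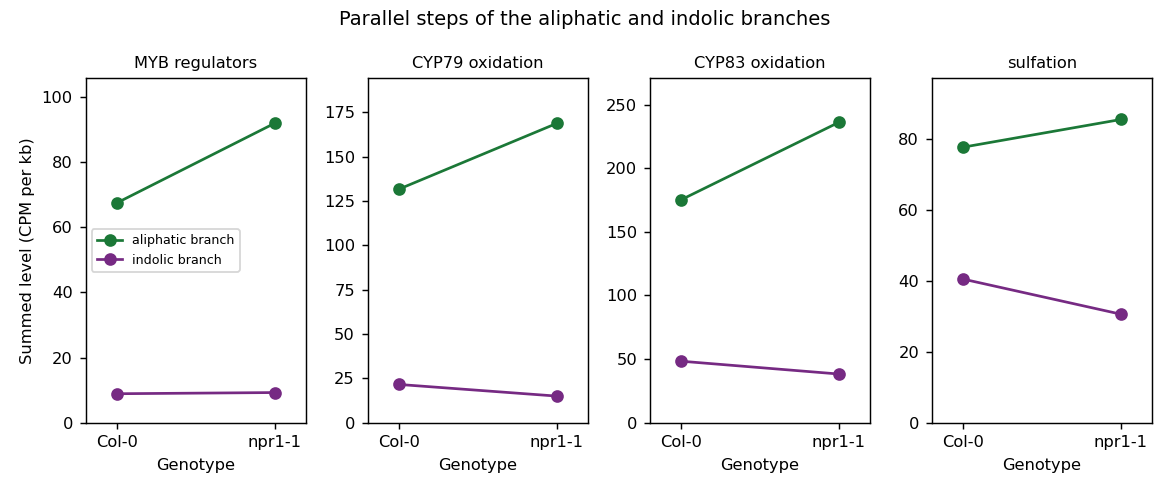
Summed level in CPM per kb (y axis) of the aliphatic genes (green) and the indolic genes (purple) at 4 parallel steps, in the Col-0 and npr1-1 libraries (x axis). At the CYP79, CYP83 and sulfation steps the green line goes up and the purple line down from Col-0 to npr1-1. The summed indolic regulators stand at 8.92 and 9.27 CPM per kb. Most of that sum is MYB34, at 8.01 and 8.72, while MYB51 stands at 0.903 and 0.557.

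The genes of aliphatic side-chain modification went both ways. The FMOGS-OX enzymes oxidise the sulfur of methylthioalkyl side chains. FMOGS-OX4 (AT1G62570, chromosome 1, 23169136 to 23172105, plus strand) stood at 262 in Col-0 against 158 CPM in npr1-1, a ratio of 0.605 from 0.588 to 0.622. Its difference of -0.72 was the lowest among the 38 genes. Its neighbours in the same gene array did not share that value. FMOGS-OX3 stood at 69.2 and 80.5 CPM and FMOGS-OX2 at 10.8 and 9.51 CPM, with differences of 0.22 and -0.17. Elsewhere on chromosome 1, FMOGS-OX1 stood at 44.9 and 58.1 CPM, a difference of 0.36, and FMOGS-OX5, which prefers long chains, at 30.3 and 28.8 CPM, with an interval that included 1. All 3 aliphatic genes below 0 were thus of this group.

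The 6 listed genes that modify the indole ring were among the lowest of the 43 per kb, with 0.342 to 4.41 CPM per kb in Col-0. CYP81F enzymes hydroxylate the ring, and the IGMT enzymes methylate the product. IGMT2 (AT1G21120) had 268 reads in Col-0 and 148 in npr1-1, a ratio of 0.551 from 0.448 to 0.676, and IGMT1 (AT1G21100), below the minimum, had 155 and 84 reads. The adjacent IGMT3, which is 96.26% identical to IGMT2 over 96.0% of a transcript, had 350 and 189 reads, so the split of reads within this array is uncertain while each of the 3 copies was lower in npr1-1. IGMT4 of the same array, at 50.2 and 42.9 CPM, was closer to even. IGMT5, at 29.0 in Col-0 against 20.8 CPM in npr1-1, had a ratio of 0.717 from 0.662 to 0.776. IGMT4 and IGMT5 are not among the 6 listed genes, and each had more reads than any of the 6. Of the 6, only CYP81F3 (AT4G37400) was higher in npr1-1, with 238 reads in Col-0 and 342 in npr1-1, a ratio of 1.43 from 1.21 to 1.70. CYP81F1, at 7.79 and 7.63 CPM, had a difference of -0.03 that turned positive under both other scalings and after the length correction, and it shares sequence with an annotated neighbour. CYP81F4, whose model lies over a gene on the opposite strand for 2140 bases, had 155 and 148 reads. CYP81F2, the enzyme of the pathogen-induced branch, was far below the minimum, with 30 reads in Col-0 and 20 in npr1-1.

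The classical myrosinase genes differed little, though the intervals of both ratios lay below 1. TGG1 (AT5G26000, chromosome 5, 9079505 to 9082384, minus strand) stood at 2077 in Col-0 against 2005 CPM in npr1-1, and its neighbour TGG2 (AT5G25980) at 823 and 784 CPM. Their ratios were 0.965 and 0.952, and after subtraction of the median of genes of like length both differences turned slightly positive. TGG1 ranked 69 of 18345 genes per kb in Col-0 and 78 in npr1-1. Classical myrosinases are made in myrosin cells and guard cells, and FAMA, the factor that specifies both, stood at 22.7 and 24.1 CPM. The other markers of these cells went both ways. KAT1, a potassium channel gene of guard cells, stood at 13.6 and 10.9 CPM, a ratio of 0.801 from 0.715 to 0.897, while MYB60 and ICE1 stood at 15.3 and 15.6 CPM and at 80.7 and 85.4 CPM. Their part in the myrosinase values was not tested. PEN2 (AT2G44490), an atypical myrosinase that acts on indole glucosinolates in living cells, was lower in npr1-1, at 72.4 and 56.3 CPM, a ratio of 0.778 from 0.740 to 0.817. In a bulk sample of leaf, fewer cells of a type and less RNA per cell cannot be told apart.

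**Figure D4:**
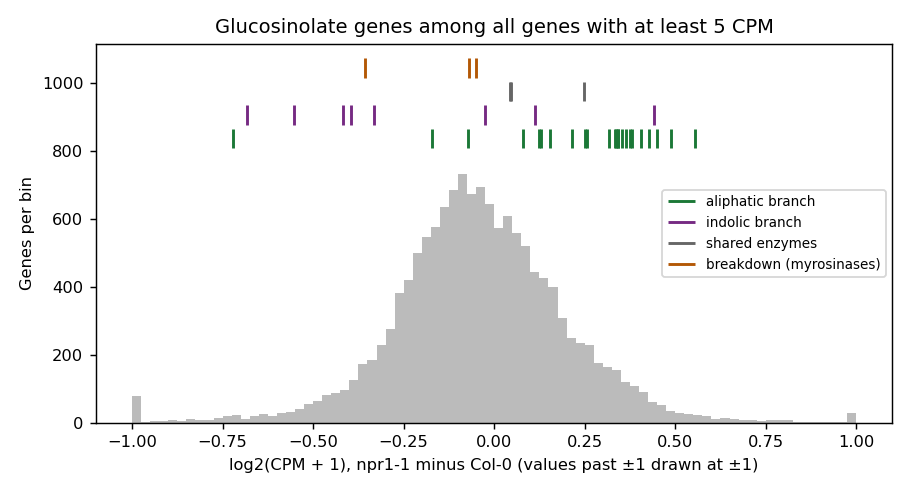
Number of genes (y axis) by difference in log2(CPM + 1), npr1-1 minus Col-0 (x axis, values beyond 1 drawn at the end bins), for all 13976 genes past 5 CPM. Ticks mark the glucosinolate genes past the minimum by branch. The aliphatic ticks gather on the right side of the bulk of genes and most indolic ticks on the left.

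Other genes of glucosinolate biology were examined from a list of 35, of which 26 were in the tables and 24 past the minimum. Their median difference was -0.21, with 8 above 0 and 16 below, where 41.0% and 59.0% of all genes lay. Of the 24, 3 were at least 1.5-fold lower in npr1-1, against 2.06% of all genes, and 0 were that much higher, against 0.909%. The 3 were PEN3, MYC2 and IGMT3. PEN3, the transporter that exports products of the PEN2 pathway, stood at 131 in Col-0 against 69.8 CPM in npr1-1, a ratio of 0.532 from 0.510 to 0.554. MYC2, a jasmonate-regulated factor that works with both groups of MYBs, stood at 59.1 and 38.5 CPM, and its partners MYC3 and MYC4 at 31.1 and 26.8 CPM and at 54.4 and 50.4 CPM. Of the MYC genes, MYC2 stood furthest from 0, with a difference of -0.60 on the log2 scale against -0.21 for MYC3 and -0.11 for MYC4. The repressors of aliphatic synthesis that respond to sulfur shortage, SDI1 and SDI2, had 121 and 147 reads and 739 and 832 reads. The remaining genes of the list that were in the tables lay within 1.5-fold on the log2(CPM + 1) scale, and overlaps with other genes were not examined for this list. Among those that direct breakdown products, NSP5 and NSP4 had differences of -0.53 and -0.48, ESP -0.15 and ESM1 0.26.

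The 5 leaf markers had differences from 0.02 to 0.57, all above 0, where 41.0% of all genes lay. They had a median of 0.20 and a summed level of 33812 in Col-0 against 38186 CPM in npr1-1. RBCS1A and MYB60 were nearly even, with ratios of 1.02 each, and the interval for MYB60, 0.921 to 1.13, included 1. Among the others the Rubisco activase gene RCA had a difference of 0.40 and LHCB1.4, a light-harvesting gene, 0.57, and their part in the aliphatic result was not tested. The 3 vasculature markers had a median of 0.03 and went both ways. SUC2, of companion cells, stood at 105 and 120 CPM, SULTR2;2 at 7.57 and 5.96 CPM, a ratio of 0.788 from 0.676 to 0.918, and APL at 11.6 and 11.8 CPM. Of 4 genes listed as root markers 2 were past the minimum, GL2 and BGLU23, with differences of -0.14 and 0.05. No check for root tissue was drawn from them. Transcript length also went with the differences, since the shortest of 20 length bins had a median of 0.11 and the longest -0.11. After subtraction of the bin's median the aliphatic median was 0.34 and the indolic median -0.31.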

How the data were processed

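RNA from leaves was sequenced on Illumina libraries, per the labels' protocols. The deposited values are CPM per the file headers, with commas as decimal marks, and the deposited gene model lengths are in bases. The submitters' processing notes name TAIR10, TopHat2 and DESeq2, with neither versions nor roles. The counter of reads, whether it used strand, and the filter on genes: not given in the sources used here.

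Divided by the smallest step of its library, every CPM value was a whole number (100% of values within 0.01), and these numbers were taken as reads. Differences were computed as log2(CPM + 1) for the genes that reached 5 CPM in either library. With 1 library per genotype nothing was tested between them. Intervals of ratios are 95% Clopper-Pearson limits on the share of a gene's reads in each library. These limits cover counting error only, and because PCR copies are not separate molecules they can be too narrow even for that. The depth of a gene is its reads. Interval ends of medians are the medians of the members' interval ends, and for the gap between branches opposite ends were subtracted. Neither is a 95% interval. A count test was not run, since no spread could be estimated.

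The members, the branch assignments and the other gene lists were chosen with earlier results of these data known. All members were named, and of the other pathway genes those at least 1.5-fold apart, MYC2, MYC3, MYC4, SDI1 and SDI2. IGMT4, NSP4, NSP5, ESP, ESM1, RBCS1A, FAMA, KAT1, MYB60, ICE1, SUC2, SULTR2;2, APL, GL2, BGLU23, RCA, LHCB1.4 and those in the closing section were added after their values were seen. IGMT5, GSTF9 and GSTF10 were also added after their values were seen.

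Gene IDs were matched to RefSeq on TAIR10.1, whose nuclear gene spans held 99% of the 18154 matched deposited models on the same strand. Copies were sought with BLAST+ 2.17.0, counting matches of 90% identity that covered 50% of a transcript or more. Protein sequences, planned for duplicated pairs, are not printed. The 1.25-fold threshold was added after the data were seen. Python 3.11.15, numpy 2.4.6, pandas 2.3.3, scipy 1.17.1 and matplotlib 3.10.9 were used. The procedure was tested on simulated data with counting error alone and changes of 2-fold. That simulation held no spread between plants and no smaller changes, so it does not speak to either. Alternatives were other pseudocounts, minimums, scalings and folds, a length correction, means, and lists without the furthest or the uncertain members.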

Additional observations from a re-analysis of the deposited data

How the results depend on the processing

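The branch medians kept their sign under every alternative run. The aliphatic median became 0.38 with median-ratio scaling and 0.38 with trimmed-mean scaling, whose shifts were -0.05 and -0.04, and the median over all members became 0.10 as a mean. With either scaling 3 members passed 1.5-fold, MYB29 being the third. As means the aliphatic and indolic values were 0.24 and -0.23, and their gap of 0.70 became 0.47. A mean is moved more than a median by members far from the rest of their branch. The furthest were FMOGS-OX4 at -0.72 in the aliphatic branch and CYP81F3 at 0.44 in the indolic one. The 415 genes at least 1.5-fold apart became 226 with a pseudocount of 5 CPM, 625 with a minimum of 1 CPM, 638 with none and 182 with a minimum of 20 CPM. They became 102 at 2-fold and 2125 at 1.25-fold, the last added after the data were seen. The 2 glucosinolate genes past 1.5-fold became 1 with a pseudocount of 5 CPM, with a minimum of 20 CPM or without members of uncertain reads, 0 at 2-fold and 21 at 1.25-fold. These settings differ by construction in which genes enter, in shrinkage or in the threshold. Of 215 values of single genes under other settings, 180 stayed within the counting interval of the reported value. TGG1 and TGG2 changed sign to 0.027 and 0.0076 after the length correction, which subtracted a bin median of -0.078 from each. No paired analysis was possible because each genotype had 1 library. The spread between plants was not measured, and depth limits genes with few reads, such as CYP81F2.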

Other observations

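Camalexin, the indolic phytoalexin, shares its first step with the indole glucosinolates. CYP71A13 and PAD3, which convert the shared aldoxime onward to camalexin, were below 5 CPM in both libraries. CYP71A13 had 134 reads in Col-0 and 42 in npr1-1, a ratio of 0.313 with a counting interval from 0.216 to 0.445. PAD3 had 126 and 26 reads, a ratio of 0.206 from 0.130 to 0.316. The genes that supply tryptophan were close to even. All 9 were past the minimum, with 4 above 0 and 5 below, a median difference of -0.04 and a range from -0.19 to 0.16. The sulfate activation and glutathione genes that feed both branches had a median of -0.05 over 8 genes. Among them APK1 and APK2, the kinases that make the sulfate donor, stood at 93.5 and 103 CPM and at 82.8 and 94.0 CPM, and GSH2, of glutathione synthesis, at 70.3 and 52.9 CPM. Markers of sulfur shortage had no common direction. LSU2 stood at 28.4 and 36.8 CPM, GGCT2;1 had 682 and 515 reads, and LSU1, SULTR1;2 and SULTR4;2 were below the minimum.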
